A study of Mus musculus with 10 samples.

Results

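The genes described here encode 9 enzymes of gluconeogenesis and glycogen metabolism, measured by RNA sequencing in mouse lung tumors. They were taken by name from the 39017 genes of the deposited table, as enzymes that act in glucose synthesis from lactate and amino acids (Pcx, Pck2, Fbp1), in glycogen synthesis (Ugp2, Gyg, Gys1, Gbe1) and in glycogen breakdown (Pygl, Pygb), and all 9 were found. The tumors came from C57BL/6 background KP mice, which carry floxed Trp53 among other alleles, and from KPG1 mice, which carry floxed Slc2a1 (encoding the glucose transporter Glut1) in addition. An adenovirus, Ad5CC10-Cre, started the tumors, so Cre recombinase was expressed from the CC10 promoter, which is active mainly in club cells of the airways. Lesions were macrodissected at 20 weeks and 1 day, and cells carrying the leukocyte marker CD45 were removed with magnetic beads, so each library is a mixture of tumor cells and the remaining CD45- cells.

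There were 5 control libraries, whose genotype label is heterozygous fl/wt although the series describes them as Glut1-WT, and 5 libraries labelled Glut1-KO, homozygous fl/fl, with 35.3 to 49.8 M counted reads each. All controls were labelled male, whereas the Glut1-KO group was mixed, with female replicates 1 to 3 and male replicates 4 and 5. In the controls Slc2a1 lay between 73.2 and 118 CPM (counts per M, scaled by TMM). It was 60.3, 42.5 and 34.6 CPM in the female libraries labelled Glut1-KO, but 92.4 and 103 CPM in the male ones, so the targeted transcript does not separate these 2 libraries from the controls. Markers of alveolar type 2 cells, the surfactant-producing cells of the alveolus, summed to 28000 to 84800 CPM in controls and 52300 to 72500 CPM in libraries labelled Glut1-KO, and the 8 club cell markers to 2090 to 11700 and 3150 to 9110 CPM.

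Gluconeogenesis runs glycolysis backwards, and its committed steps bypass the irreversible reactions of glycolysis. Pyruvate carboxylase (Pcx) makes oxaloacetate in mitochondria, phosphoenolpyruvate carboxykinase (mitochondrial Pck2, cytosolic Pck1) turns it into phosphoenolpyruvate, fructose-1,6-bisphosphatase (Fbp1, Fbp2) reverses phosphofructokinase, and glucose-6-phosphatase releases free glucose, mostly in liver and kidney. For glycogen, Ugp2 makes UDP-glucose, glycogenin (Gyg) primes the chain, glycogen synthase (Gys1 in most tissues, Gys2 in liver) extends it and Gbe1 adds branches. Glycogen phosphorylase (Pygl, Pygb and Pygm, named for liver, brain and muscle) releases glucose-1-phosphate from it. In fetal lung, epithelial glycogen is known as a store drawn on for surfactant synthesis.

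At the adjusted threshold of 0.05 by limma, 0 of the 9 genes differed between the groups, as did 0 of all 15922 genes tested (0%). Without adjustment 2 of the 9 (22.2%), Fbp1 and Gys1, had a limma p below 0.05, beside 7.68% of all genes tested. Both had a higher fitted level with the Glut1-KO label. With counts summed by the second number in the deposited names, which may stand for the mouse, neither of them was below 0.05. Control replicates 1, 2 and 5 share 1 such name number and control replicates 3 and 4 another, so this fit has fewer units. The unadjusted limma p was 0.0688 for Fbp1 and 0.0601 for Gys1, whereas that of Pcx was 0.0392. The log2 fold change was then 1.58 for Fbp1 and 0.35 for Gys1, against 1.61 and 0.37 with libraries kept separate. With sex as a covariate the unadjusted limma p was 0.12 for Fbp1 and 0.0063 for Gys1. With male libraries only it was 0.0284 and 0.0088 (adjusted p 0.496 and 0.436). The p with sex as a covariate also draws on the spread among the female libraries, which include the highest Fbp1 value. There were 0 female controls. Every log2 fold change with sex as a covariate or among male libraries therefore compares Glut1-KO replicates 4 and 5 alone with the controls. These 2 libraries share 1 name number and had Slc2a1 within the range of the controls. The log2 fold change was above 0 for 7 of the 9, beside 49.3% of all genes, and below 0 for Ugp2 and Gbe1. Its median over the 9 was 0.18, beside -0.005 over all genes. Without control replicate 2 the median was 0.07, with 6 of 9 above 0, without control replicate 1 it was 0.28, without Glut1-KO replicate 3 it was 0.34 and without Glut1-KO replicate 4 it was 0.12. The groups did not overlap for 0 of the 9, beside 1.84% of all genes. Several libraries thus share a name number, and no label says that libraries came from separate animals. P-values therefore measure the spread between these libraries only.

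**Figure D1:**
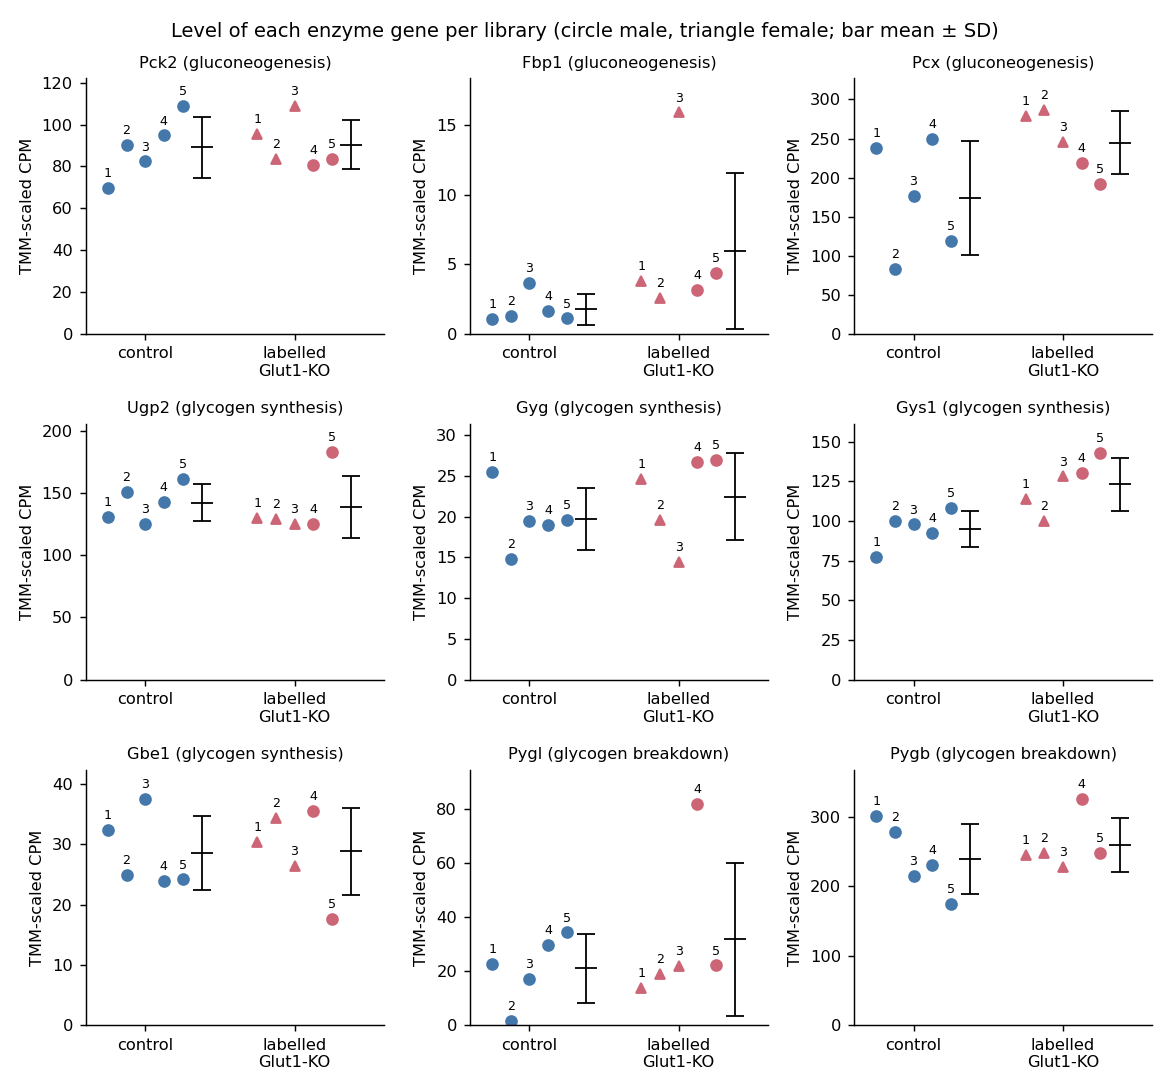
TMM-scaled CPM (y axis) of each gene in the 5 control libraries and the 5 libraries labelled Glut1-KO (x axis). Points are libraries with their replicate number, circles male and triangles female, and bars show mean ± SD. The groups overlap in every panel, and single libraries lie far from the rest for Fbp1 (15.9 CPM) and Pygl (1.52 and 81.8 CPM).

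Promoter sequence is shown for the genes with the largest fitted differences between the groups (Fbp1, Pygl and Pcx) and for Gys1. Each window is the 250 bases before a transcription start of the RefSeq annotation of GRCm38.p6, on the strand of the gene: Fbp1 chr13:62888283-62888532 (minus strand), Pygl chr12:70227684-70227933 (minus), Pcx chr19:4510222-4510471 (plus, the first of its 2 annotated starts) and Gys1 chr7:45434589-45434838 (plus). Capitals mark the motifs searched on both strands: CACGTG (E-box), ACGTG (the core of hypoxia response elements, also contained in CACGTG), TGACGTCA (cyclic AMP response element), CCAAT and GGGCGG (GC box).
Fbp1: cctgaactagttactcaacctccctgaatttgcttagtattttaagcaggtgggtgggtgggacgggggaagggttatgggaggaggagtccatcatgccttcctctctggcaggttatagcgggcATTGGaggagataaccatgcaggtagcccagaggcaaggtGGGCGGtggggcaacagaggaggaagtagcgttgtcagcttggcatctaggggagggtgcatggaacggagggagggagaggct
Pygl: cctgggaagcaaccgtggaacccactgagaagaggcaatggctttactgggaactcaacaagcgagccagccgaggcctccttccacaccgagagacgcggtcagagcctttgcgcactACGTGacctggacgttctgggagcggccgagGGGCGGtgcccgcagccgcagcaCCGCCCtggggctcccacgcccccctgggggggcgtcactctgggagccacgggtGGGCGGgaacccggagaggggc
Pcx: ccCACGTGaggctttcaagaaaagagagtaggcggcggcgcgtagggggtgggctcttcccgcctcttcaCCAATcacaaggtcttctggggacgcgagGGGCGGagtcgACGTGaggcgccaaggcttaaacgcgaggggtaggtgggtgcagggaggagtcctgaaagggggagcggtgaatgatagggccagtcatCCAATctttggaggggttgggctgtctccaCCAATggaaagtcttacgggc
Gys1: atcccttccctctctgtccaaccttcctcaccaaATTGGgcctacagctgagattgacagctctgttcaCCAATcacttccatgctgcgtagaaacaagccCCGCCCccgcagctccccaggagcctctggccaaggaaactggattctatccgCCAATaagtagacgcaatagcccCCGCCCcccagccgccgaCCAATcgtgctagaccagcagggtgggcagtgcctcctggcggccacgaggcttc

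All 9 genes matched the promoter table, with 11 windows for them among 32851. CACGTG occurred in 1 of the 9 genes (Pcx) and in 6.02% of all windows. ACGTG was found in 4 genes (Pcx, Ugp2, Pygl, Pygb), beside 16.6% of all windows, and in Pcx at 3 positions, including both strands of the E-box. TGACGTCA was in 0 of the 9 and in 1.55% of all windows. CCAAT was present in 5 genes (33.8% of all windows) and GGGCGG in 7 (32.7%). The Gys1 window held 4 CCAAT boxes, and 0.84% of all windows hold 4 or more. The Pcx window held 3, and the Fbp1 window 1 CCAAT and 1 GC box. The median GC content was 52.4% over all windows, against 69.2% for Pygl, 60.8% for Pcx, 60.0% for Gys1 and 56.4% for Fbp1. These matches describe letters in a window and not bound sites.

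Because long transcripts collect more reads, levels were compared between genes per kb of principal transcript. In the controls Pygb was highest with 61.3 ± 12.8 CPM per kb (SD, n = 5), followed by Ugp2 with 53.1 ± 5.42 and Pcx with 42.7 ± 18.0. Gys1 (25.9 ± 3.09) and Pck2 (19.3 ± 3.12) lay in the middle of this scale. Gyg (11.6 ± 2.24), Gbe1 (8.4 to 13.2 over the libraries) and Pygl (7.48 ± 4.53 CPM per kb) were lower, and Fbp1 (1.18 ± 0.747) was lowest. Of the 8 neighbouring pairs in this order, the ranges over libraries were apart for Pck2 and Gyg and overlapped for the others.

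In the libraries labelled Glut1-KO the levels per kb ran from 66.3 ± 9.87 for Pygb to 4.03 ± 3.79 for Fbp1 (SD, n = 5). Pcx (60.2 ± 9.91) stood above Ugp2 (51.6 ± 9.25) and Pygl (11.3 ± 9.97) above Gbe1 (10.1 ± 2.55), which are the places where the order differed from the controls, and in both pairs the ranges overlapped. Here Ugp2 and Gys1 (33.4 ± 4.41), Gys1 and Pck2 (19.6 ± 2.58), and Pck2 and Gyg (13.2 ± 3.17) had ranges that were apart. With the union of all exons as length, Gbe1 was above Pygl in both groups. In the controls this length also set Gys1 and Pck2 apart and let the ranges of Pck2 and Gyg overlap, and in the libraries labelled Glut1-KO Pck2 and Gyg overlapped too. The order for Pygb, Ugp2, Pcx, Gys1, Pck2, Gyg and Fbp1 was the same by either length.

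**Figure D2:**
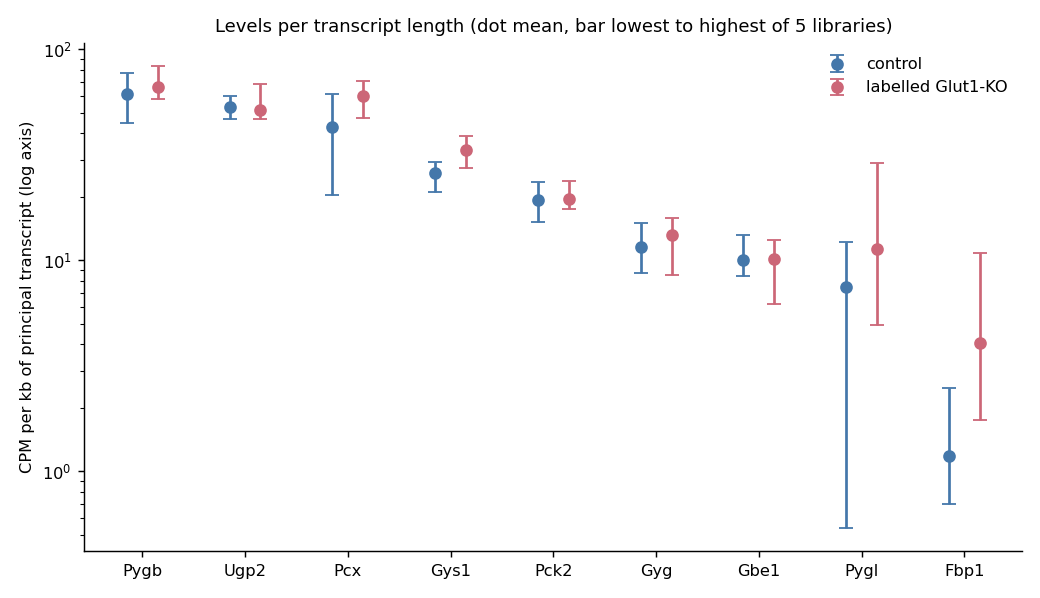
CPM per kb of principal transcript on a log axis (y axis) for the 9 genes (x axis), with controls and libraries labelled Glut1-KO side by side. Dots are means of 5 libraries and bars run from the lowest to the highest library; Pygb, Ugp2 and Pcx are highest, Fbp1 is lowest, and the bar of Pygl in controls spans 0.539 to 12.2.

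Pyruvate carboxylase opens the gluconeogenic path and also refills the citric acid cycle. Pcx (ENSMUSG00000024892, chr19:4510472-4621752, plus strand, GRCm38) measured 238, 82.7, 177, 250 and 119 CPM in control replicates 1 to 5 and 279, 287, 246, 219 and 192 CPM in Glut1-KO replicates 1 to 5. Control replicates 2, 3 and 5 lay below every library labelled Glut1-KO, control replicates 1 and 4 within their range, and the 3 female libraries had the 3 highest values of their group. The means were 174 ± 73.0 and 245 ± 40.2 CPM, a log2 fold change of 0.59 (SE 0.29, 95% interval -0.04 to 1.23, limma adjusted p = 0.677). An exact permutation test of the group labels (two-sided) gave p = 0.111. With sex as a covariate the log2 fold change was 0.36 and without control replicate 2 it was also 0.36. With counts summed by name number it was 0.58 (unadjusted limma p 0.0392, adjusted p = 0.688). Control replicate 2 had the lowest Pcx level, and also the lowest sum of alveolar type 2 markers (28000 CPM, against 56000 to 84800 in the other controls), whose part in the result was not tested.

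Pck2, which makes phosphoenolpyruvate inside mitochondria, had nearly the same mean in both groups. Pck2 (ENSMUSG00000040618, chr14:55540266-55551242, plus strand) measured 69.7, 90.2, 82.4, 94.8 and 109 CPM in the controls and 95.4, 83.5, 109, 80.9 and 83.5 CPM in those labelled Glut1-KO. The groups covered much the same range, and Glut1-KO replicate 3 was just above the highest control. The means of 89.1 ± 14.4 and 90.5 ± 11.9 CPM gave a log2 fold change of 0.03 (SE 0.14, 95% interval -0.27 to 0.33, limma adjusted p = 0.974; exact permutation p = 0.802). Its sign turned with sex as a covariate (-0.10). The cytosolic enzyme gene Pck1, the main isoform of liver, had at most 1 count in any library. Per kb, the ratio of Pck2 to Pcx was 0.551 ± 0.309 in controls, from 0.257 to 0.957, and 0.331 ± 0.0568 in libraries labelled Glut1-KO, from 0.255 to 0.39. The highest ratios, 0.957 and 0.8, were those of control replicates 2 and 5.

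Fructose-1,6-bisphosphatase 1 removes a phosphate from fructose-1,6-bisphosphate and so opposes phosphofructokinase. Fbp1 (ENSMUSG00000069805, chr13:62864753-62888282, minus strand) measured 1.04, 1.28, 3.68, 1.63 and 1.11 CPM in the controls and 3.8, 2.59, 15.9, 3.13 and 4.37 CPM in those labelled Glut1-KO, from 41 to 709 reads per library. Of the controls, 4 lay below every library labelled Glut1-KO, and control replicate 3 lay within their range. Glut1-KO replicate 3 was far above all other libraries. The means were 1.75 ± 1.1 and 5.96 ± 5.61 CPM, and the log2 fold change of 1.61 (SE 0.54, 95% interval 0.41 to 2.80), or 3.05-fold, was the largest of the 9. It did not pass after adjustment (limma p = 0.0131, adjusted p = 0.52), and the exact permutation test gave p = 0.0238, where 0.00794 is the smallest it can give. Without Glut1-KO replicate 3 the log2 fold change was 1.14, and with sex as a covariate 1.27. In bulk libraries, more cells of a type and more RNA per cell (or, for a lower level, fewer cells and less RNA) cannot be told apart.

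Leukocyte and macrophage markers pointed in the same direction as Fbp1 despite the CD45 depletion, and neutrophil markers did not. All 10 leukocyte markers had a higher fitted level with the Glut1-KO label (median log2 fold change 0.77), and 0 passed adjustment by limma (5 had an unadjusted p below 0.05). Their sum was 33.7 to 73.3 CPM in controls and 35.6 to 94.8 CPM in libraries labelled Glut1-KO. Of 11 macrophage markers listed, 8 were in the table and 7 tested, of which 6 were higher by the fit, 0 passed adjustment and 5 had an unadjusted p below 0.05. Their sum was 31.5 to 55.7 CPM in controls and 46.8 to 65.9 CPM in libraries labelled Glut1-KO, and 0 of the 8 were at 0 in all libraries. Over all genes tested 7.68% had an unadjusted p below 0.05. The groups did not overlap for 4 of the 10 leukocyte and 3 of the 7 macrophage markers, beside 1.84% of all genes. Ptprc, which encodes CD45 itself, was at 2.3 to 3.26 CPM in controls and 5.05 to 10.1 CPM with the Glut1-KO label. Library by library, Glut1-KO replicate 3, highest for Fbp1, had a leukocyte sum of 88.4 CPM and a macrophage sum of 52.9 CPM. Both sums were highest in Glut1-KO replicate 1 (94.8 and 65.9 CPM), where Fbp1 was at 3.8 CPM. Of 7 neutrophil markers tested, 3 were higher by the fit and 4 lower (median log2 fold change -0.23), and 0 passed adjustment by limma. The list summed to 185 to 10400 CPM in controls and 116 to 1010 CPM with the Glut1-KO label. Nearly all of that sum was 1 gene, Ltf, at 176 to 10400 CPM in controls and 110 to 981 CPM with the Glut1-KO label. The sum therefore follows Ltf and is not a measure of the list as a whole, in which Camp had at most 1 count and Ly6g at most 2. Endothelial markers were higher by the fit for 10 of 10 (median log2 fold change 0.64), 0 passed adjustment by limma, and their sums were 121 to 461 and 185 to 605 CPM. In the other direction, ciliated cell markers were lower by the fit for 7 of 7 (median log2 fold change -1.13) and club cell markers for 6 of 8 (-0.45), with 0 passed by limma in either list. The part of these cells in the Fbp1 result was not tested.

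The paralog Fbp2, known as the muscle isoform, made up most of the fructose-1,6-bisphosphatase transcript here. Fbp2 measured 42.5, 75.8, 70.1, 41.3 and 57.8 CPM in the controls and 76.9, 43.2, 151, 62.0 and 56.5 CPM in those labelled Glut1-KO. Glut1-KO replicate 3 was highest for Fbp2 as it was for Fbp1, and of the other 4 libraries of its group 3 lay within the controls and replicate 1 just above them. The log2 fold change was 0.34 (SE 0.32, limma adjusted p = 0.82), and 0.06 without Glut1-KO replicate 3. Per kb, Fbp1 was 2.19, 1.52, 4.58, 3.48 and 1.73% of the sum of both in the controls and 4.33, 5.2, 8.78, 4.42 and 6.62% in the libraries labelled Glut1-KO. The mean share was 2.70 ± 1.30% and 5.87 ± 1.87% (SD, n = 5). Only control replicate 3 exceeded any library labelled Glut1-KO. Fbp1 was also set against the 3 phosphofructokinase genes Pfkl, Pfkm and Pfkp, summed per kb. The ratio was 0.0118 ± 0.00833 in controls and 0.0387 ± 0.0444 in libraries labelled Glut1-KO, where replicate 3 had 0.118 and the others 0.0151 to 0.0226. In the controls it ran from 0.00602 to 0.0262. The highest, control replicate 3, lay above every library labelled Glut1-KO except replicate 3.

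The last gluconeogenic enzyme was represented almost only by its ubiquitous form. G6pc, the glucose-6-phosphatase gene of liver and kidney, had at most 4 counts in any library and G6pc2, the islet form, at most 2. G6pc3 was at 48.6 ± 3.25 CPM in controls and 42.9 ± 5.34 CPM in libraries labelled Glut1-KO (log2 fold change -0.19, SE 0.11, limma adjusted p = 0.73; -0.05 with sex as a covariate).

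**Figure D3:**
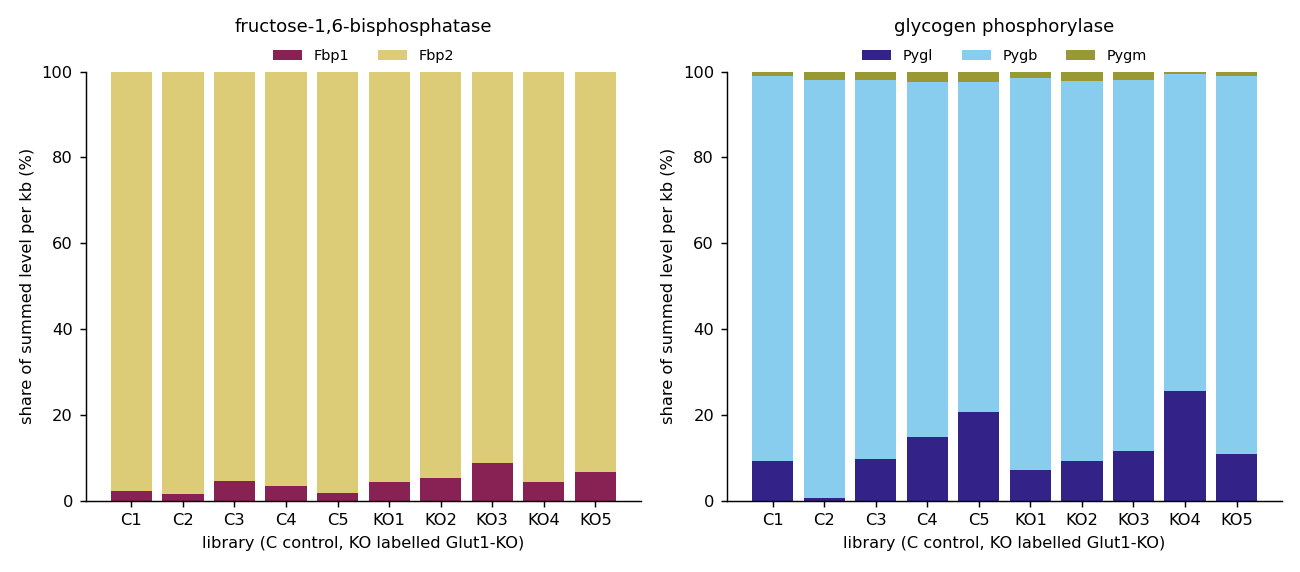
Share of each isoform in the summed level per kb of principal transcript (y axis, percent) in each library (x axis; C control, KO labelled Glut1-KO). Fbp1 is the minor fructose-1,6-bisphosphatase transcript in every library, from 1.52 to 8.78%, and Pygb the major phosphorylase transcript, from 73.9 to 97.2%.

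Ugp2 joins glucose-1-phosphate to UTP and supplies UDP-glucose to glycogen and to glycosylation alike. Among the glycogen genes of the 9 members, it had the smallest SD relative to its mean in the controls. Ugp2 (ENSMUSG00000001891, chr11:21321138-21371201, minus strand) measured 131, 151, 125, 143 and 161 CPM in the controls and 130, 129, 125, 125 and 183 CPM in those labelled Glut1-KO. Glut1-KO replicate 5 was above all other libraries, and the other 4 of its group lay within 125 to 130 CPM at the lower end of the controls. The means were 142 ± 14.5 and 138 ± 24.8 CPM (log2 fold change -0.05, SE 0.13, 95% interval -0.34 to 0.23, limma adjusted p = 0.941; exact permutation p = 0.69). Within male libraries the value was 0.09. Among 8 other genes of UDP-glucose and UDP-galactose metabolism, 0 passed the test, 5 were higher and 3 lower (median log2 fold change 0.05). The lowest p of this list was that of Ugcg, the glucosylceramide synthase gene (101 ± 23.2 and 83.3 ± 16.5 CPM, log2 fold change -0.27, SE 0.19, limma adjusted p = 0.766), whose value was 0.02 with sex as a covariate.

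Glycogenin, the self-glucosylating primer, was among the lower transcripts. Gyg (ENSMUSG00000019528, chr3:20122084-20155317, minus strand) measured 25.5, 14.8, 19.5, 19.0 and 19.6 CPM in the controls and 24.6, 19.6, 14.5, 26.7 and 27.0 CPM in those labelled Glut1-KO. The groups overlapped, and the 2 male libraries labelled Glut1-KO had the highest values of all. The means were 19.7 ± 3.80 and 22.5 ± 5.38 CPM (log2 fold change 0.18, SE 0.21, 95% interval -0.27 to 0.64, limma adjusted p = 0.855; exact permutation p = 0.373). Among male libraries the log2 fold change was 0.49 (limma adjusted p = 0.534), and with the female libraries labelled Glut1-KO against all controls it was -0.0049.

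Glycogen synthase 1, which extends the chain from UDP-glucose, had the lowest p of the 6 glycogen enzymes among the 9 genes. Gys1 (ENSMUSG00000003865, chr7:45434844-45456619, plus strand) measured 77.5, 100, 97.8, 92.4 and 108 CPM in the controls and 114, 100, 128, 130 and 143 CPM in those labelled Glut1-KO. Of the latter, 4 exceeded every control and replicate 2 lay within the controls. The means were 95.2 ± 11.4 and 123 ± 16.2 CPM, a log2 fold change of 0.37 (SE 0.13, 95% interval 0.09 to 0.64), or 1.29-fold. After adjustment it did not pass (limma p = 0.0147, adjusted p = 0.531; exact permutation p = 0.0238). The log2 fold change was 0.52 among male libraries (Glut1-KO replicates 4 and 5, of 1 name number, against the controls) and 0.27 with the female libraries labelled Glut1-KO against all controls, and from 0.29 to 0.44 with any 1 library left out. Gys1 shares 310 exonic bases (6.47% of its exons) with Ruvbl2 on the opposite strand, so if strand was not used in counting, reads from these bases cannot be told apart. Gys2, the liver synthase, had at most 2 counts in any library.

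Genes of the dissociation stress response, which is induced when tissue is digested to single cells, had the opposite direction to Gys1. Of 15 such genes, 14 had a lower fitted level with the Glut1-KO label, 0 passed adjustment by limma and 6 had an unadjusted p below 0.05, beside 7.68% of all genes. The groups did not overlap for 3 of the 15 (Jun, Atf3 and Dusp1, named after their values were seen), beside 1.84%. The sum of the list was 6490 to 8630 CPM in controls and 4280 to 6940 CPM in libraries labelled Glut1-KO. The lowest sums, 4760 and 4280 CPM, were those of Glut1-KO replicates 4 and 5, which had the highest Gys1 (130 and 143 CPM). Glut1-KO replicate 3, with Gys1 at 128 CPM, had the highest sum of its group, 6940 CPM. Control replicate 1 had the lowest Gys1 (77.5 CPM) and a sum of 7320 CPM, inside the range of the controls. The part of the stress genes in the Gys1 result was not tested.

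The branching enzyme gene had nearly equal means. Gbe1 (ENSMUSG00000022707, chr16:70313949-70569716, plus strand) measured 32.4, 24.9, 37.5, 23.9 and 24.2 CPM in the controls and 30.4, 34.4, 26.4, 35.5 and 17.6 CPM in those labelled Glut1-KO. The highest value was that of a control and the lowest that of Glut1-KO replicate 5. The means were 28.6 ± 6.09 and 28.9 ± 7.26 CPM (log2 fold change -0.01, SE 0.21, 95% interval -0.48 to 0.45, limma adjusted p = 0.992; exact permutation p = 0.984). Its sign turned under 10 of 22 alternatives and is not a direction.

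Pygl, the liver-type phosphorylase, had the widest range of the 9 genes, its highest value being 53.7 times its lowest. Relative to the mean, the SD was as large for Fbp1 (63.2 and 94.1% in the 2 groups, against 60.5 and 88.6% for Pygl). Pygl (ENSMUSG00000021069, chr12:70190811-70231488, minus strand) measured 22.6, 1.52, 17.3, 29.9 and 34.4 CPM in the controls and 13.9, 18.9, 22.1, 81.8 and 22.2 CPM in those labelled Glut1-KO. Control replicate 2 lay far below and Glut1-KO replicate 4 far above all other libraries, and the remaining 8 libraries of both groups shared the range of 13.9 to 34.4 CPM. The means were 21.1 ± 12.8 and 31.8 ± 28.2 CPM (log2 fold change 0.90, SE 0.80, 95% interval -0.86 to 2.66, limma adjusted p = 0.808; exact permutation p = 0.516). Without control replicate 2 the log2 fold change was -0.03, so its direction rests on that library. It was 1.64 with sex as a covariate and 0.31 with counts summed by name number. Control replicate 2 also had the lowest sums of alveolar type 2 (28000 CPM) and club cell markers (2090 CPM), the highest sum of proliferation genes (611 CPM, against 260 to 361 in the other controls) and the most reads, and their part in its Pygl level was not tested.

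Pygb, the brain-type phosphorylase, was the main form. Pygb (ENSMUSG00000033059, chr2:150786735-150831758, plus strand) measured 301, 278, 215, 230 and 175 CPM in the controls and 245, 248, 228, 326 and 248 CPM in those labelled Glut1-KO. Glut1-KO replicate 4 was highest, as for Pygl, and the other 4 of its group lay inside the range of the controls. The means were 240 ± 50.1 and 259 ± 38.6 CPM (log2 fold change 0.13, SE 0.16, 95% interval -0.22 to 0.48, limma adjusted p = 0.868; exact permutation p = 0.468). The log2 fold change was 0.023 without control replicate 5, 0.04 without Glut1-KO replicate 4 and 0.27 with sex as a covariate. Pygm, the muscle-type gene, was at 3.84 ± 1.09 and 2.99 ± 1.13 CPM (log2 fold change -0.39, limma adjusted p = 0.792). For Pygm it was -0.96 with sex as a covariate, -0.20 without Glut1-KO replicate 4 and -0.018 for the female libraries labelled Glut1-KO against all controls.

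Per kb, Pygb accounted for 86.9 ± 7.67% of phosphorylase transcript in controls and 85.6 ± 6.79% in libraries labelled Glut1-KO, and Pygl for 11.1 ± 7.44% and 12.9 ± 7.30%. The share of Pygl ran from 0.735% in control replicate 2 to 20.8% in control replicate 5, and from 7.17 to 25.6% in the libraries labelled Glut1-KO. Thus the spread within a group was wider than the difference of 11.1 and 12.9% between them. The ratio of the synthase to the phosphorylases Pygl and Pygb, per kb, was 0.388 ± 0.0978 in controls and 0.446 ± 0.0963 in libraries labelled Glut1-KO, with overlapping ranges of 0.248 to 0.514 and 0.313 to 0.545.

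**Figure D4:**
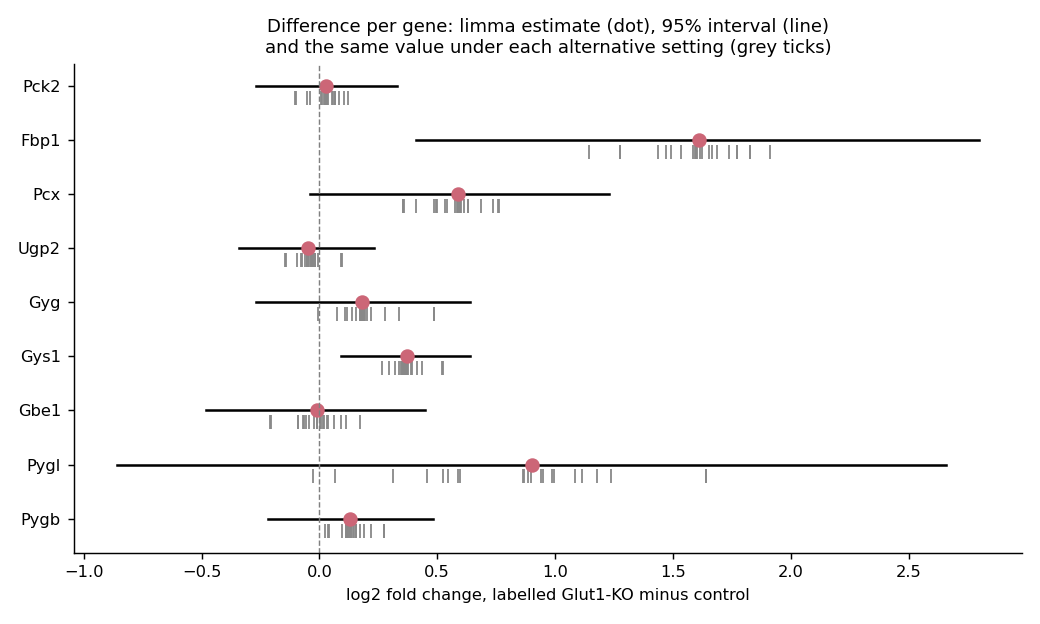
Log2 fold change of each gene, labelled Glut1-KO minus control (x axis), with the 95% interval of limma (line) and the value under each alternative setting (grey ticks). The intervals of Fbp1 (0.41 to 2.80) and Gys1 (0.09 to 0.64) lie above 0, and those of the other 7 genes cross it; the ticks of Gbe1, Pck2, Pygl, Ugp2 and Gyg fall on both sides of 0.

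The genes around these enzymes were counted in lists chosen by function. Over all lists 84 genes were named, 82 were in the table and 74 were tested, of which 47 were higher and 27 lower (median log2 fold change 0.08). By limma 0 passed adjustment. An unadjusted p below 0.05 was found for 10 of the 74 (13.5%), beside 7.68% of all genes tested. Groups that did not overlap were found for 1 of the 74 (1.35%), beside 1.84% of all genes. This gene was Phka2, the liver regulatory subunit of phosphorylase kinase, which lies on the X chromosome. Phka2 measured 11.9, 16.6, 11.3, 11.2 and 29.8 CPM in the controls and 8.08, 9.53, 7.03, 1.56 and 7.97 CPM in those labelled Glut1-KO. Every library labelled Glut1-KO was below every control, female and male alike. The log2 fold change was -1.32 (SE 0.45), with a limma p of 0.0144 and an adjusted p of 0.531. It was -2.01 with sex as a covariate and -0.90 without Glut1-KO replicate 4, the library at 1.56 CPM. For the female libraries labelled Glut1-KO against all controls it was -0.89.

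In the list of other glycogen breakdown genes, 3 of 7 tested were higher by the fit and 4 lower. Phkb, another regulatory subunit of phosphorylase kinase, also had an unadjusted p below 0.05 and is named after its values were seen. It was at 88.9 ± 30.2 and 133 ± 32.2 CPM (log2 fold change 0.61, limma adjusted p = 0.612; 0.33 with sex as a covariate). Thus Phkb was higher and Phka2 lower by the fit, and neither passed adjustment. Gaa, the lysosomal glucosidase, was the highest of this list per kb (54.9 CPM per kb in controls).

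Of the other glycogen synthesis genes 2 of 6 tested were higher and 4 lower. Pgm2, a phosphoglucomutase, was the highest per kb (57.5 CPM per kb in controls), and Pgm2l1, the glucose-1,6-bisphosphate synthase, had the lowest p (12 ± 2.29 and 9.18 ± 2.43 CPM, log2 fold change -0.38, limma adjusted p = 0.707; -0.24 with sex as a covariate). Among 12 tested regulators of glycogen, 7 were higher and 5 lower. Ppp1r3b, which directs protein phosphatase 1 to glycogen and thereby activates the synthase, had the lowest p of them: it measured 59.3, 63.6, 88.4, 51.1 and 61.1 CPM in the controls and 111, 92.0, 152, 65.9 and 76.4 CPM in those labelled Glut1-KO. All but control replicate 3 lay below every library labelled Glut1-KO, and the log2 fold change was 0.58 (SE 0.23, limma adjusted p = 0.593). It was 0.16 with sex as a covariate and 0.87 for the female libraries labelled Glut1-KO against all controls. The catalytic subunit Ppp1ca was the highest of the list per kb (197 CPM per kb in controls).

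Genes that work against fructose-1,6-bisphosphatase were higher by the fit for 6 of 7 tested (median log2 fold change 0.25), and 0 passed adjustment by limma. Pfkfb2, which makes and degrades the phosphofructokinase activator fructose-2,6-bisphosphate, measured 146, 76.0, 151, 132 and 130 CPM in the controls and 181, 189, 182, 175 and 138 CPM in those labelled Glut1-KO. All but replicate 5 of the latter exceeded every control (log2 fold change 0.47, SE 0.19, limma adjusted p = 0.599; 0.30 without control replicate 2). Pfkl was the highest of this list per kb (74.4 CPM per kb in controls). Of the reversible steps shared with glycolysis, 9 of 11 tested were higher and 2 lower. Eno2, the neuronal enolase, had their lowest p at a level near 1 CPM (0.847 ± 0.373 and 1.34 ± 0.364 CPM, log2 fold change 0.69, limma adjusted p = 0.668), and Aldoa was the highest per kb (721 CPM per kb in controls).

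Around pyruvate carboxylase and Pck2, 6 of 11 tested genes were higher and 5 lower. Mpc2, a subunit of the carrier that brings pyruvate into mitochondria, measured 35.7, 37.3, 43.5, 36.8 and 44.3 CPM in the controls and 50.9, 48.8, 44.3, 57.8 and 73.5 CPM in those labelled Glut1-KO. The groups met at 44.3 CPM, and with a log2 fold change of 0.46 (SE 0.15, limma adjusted p = 0.482) it had the lowest p of all listed pathway genes. With sex as a covariate it was 0.73 (limma adjusted p = 0.188), and 0.29 for the female libraries labelled Glut1-KO against all controls. Pkm, the pyruvate kinase that gluconeogenesis bypasses, was the highest of this list per kb (461 CPM per kb in controls), and Ugdh that of the UDP-sugar list (61.5).

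Regulators of these enzymes were higher by the fit for 8 of 9 tested (median log2 fold change 0.21), and 0 passed adjustment by limma. Nr3c1, the glucocorticoid receptor and an activator of gluconeogenic genes in liver, measured 121, 115, 117, 110 and 114 CPM in the controls and 139, 196, 218, 163 and 108 CPM in those labelled Glut1-KO. The controls were close together, and 4 libraries labelled Glut1-KO lay above them and replicate 5 below (log2 fold change 0.47, SE 0.17, limma adjusted p = 0.566). With sex as a covariate the value was 0.20, and 0.65 for the female libraries labelled Glut1-KO against all controls. Atf4, an activator of amino acid stress genes, was the highest of the list per kb (140 CPM per kb in controls).

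Across the 10 libraries, no single library was high or low for all 9 genes. Glut1-KO replicate 5 was highest for 3 genes (Ugp2, Gyg, Gys1) and lowest for 1 (Gbe1). Replicate 3 was highest for Pck2 and Fbp1 but lowest for Ugp2 and Gyg, and replicate 4 was highest for both phosphorylases. Among controls, replicate 1 was lowest for 3 genes (Pck2, Fbp1, Gys1) and replicate 2 for Pcx and Pygl.

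The genes whose log2 CPM ran most alike to each enzyme gene are given as a description, over the same 10 libraries, so that differences in depth, sex and group between libraries enter each value. For Fbp1 these were Entpd2 (Pearson r = 0.966, Spearman rho = 0.927), an ectonucleotidase gene, and Cds2 (0.927 and 0.697). Pcx ran with Synpo (r = 0.955) and Il18bp (0.943), Pck2 with BC053749 (0.933) and Ppfibp2 (0.92), and Ugp2 with Chac1 (0.951), a glutathione-degrading enzyme gene, and Arid3b (0.934). For Gys1 they were Gm20536 (0.969), at a mean of 0.528 CPM, and Cenpb (0.935). Gyg was nearest to Acer3 (0.918) and Tm2d1 (0.914), and Gbe1 to Txndc12 (0.928) and Lrrc2 (0.912). The phosphorylase genes did not share their nearest genes: Pygl ran with Cers2 (0.95), a ceramide synthase gene, and Rabif (0.939), and Pygb with Sra1 (0.976) and Hars (0.951).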

How the data were processed

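RNA of the CD45- tumor fractions was sequenced from 10 libraries, 5 per group by their labels. The authors trimmed reads with Cutadapt (1.4.2), aligned them to mm10 with HISAT2 and counted them with featureCounts (1.4.4), per the submitters' processing notes, while the study's methods name another version of Cutadapt. The use of strand in counting and the annotation release are not given in the sources used here. The deposited values are raw read counts per gene, with no normalization. The single files and the combined table differed in 0 counts. The 10 columns of the deposited log2 table were not used, since their names match no sample title. Positions and lengths came from GENCODE M21, which held 96.4% of the gene identifiers.

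Counts were filtered with edgeR 4.0.16 (filterByExpr, minimum count 10, minimum total 15), scaled by TMM, transformed with voom and fitted with limma 3.58.1 in R 4.3.3, with group as the only term. TMM, voom and limma follow the study's methods, whereas the filter does not: the study filtered by mean TPM, which was run as an alternative. P-values were adjusted by Benjamini-Hochberg over 15922 genes, with a threshold of 0.05. The script was tested on simulated data. Two-sided exact permutation tests used scipy 1.17.1. Alternatives comprised edgeR's quasi-likelihood test, DESeq2 1.42.0, other scalings and filters, sex, name number, the replicate number and leaving out each library.

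The members and lists were chosen with earlier results of these data known. From the lists, paralogs of the members, the gene with the lowest p and the gene highest per kb were named, and for each member the 2 genes most alike by Pearson r. A result for 1 gene of the lists is not reported here. The isoform shares were chosen after the levels had been seen.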

Additional observations from a re-analysis of the deposited data

Results flagged for a closer look

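In each group of 5 libraries, the highest and the lowest value were set against the rest (Dixon's ratio), for the 9 genes and for the read totals. Of the 20 groups of values 6 had a value apart from the others, where chance gives about 1 in 20. Fbp1 stood at 3.68 CPM in control replicate 3, against 1.04 to 1.63 CPM in the other controls. Glut1-KO replicate 3 gave 15.9 CPM for this gene, where the other libraries so labelled gave 2.59 to 4.37. Ugp2 was at 183 CPM in Glut1-KO replicate 5, where the others of that group lay at 125 to 130 CPM. Both phosphorylase genes were apart in Glut1-KO replicate 4: Pygl at 81.8 CPM against 13.9 to 22.2, and Pygb at 326 CPM against 228 to 248. Control replicate 2 had 49.8 M counted reads, against 40.1 to 41.4 M in the other controls. No explanation was tested for these values.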

How the results depend on the processing

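Under all 23 alternatives 0 of the 9 genes passed. The number of all genes called was 210 by DESeq2, against 0 by limma and 0 by edgeR (with 1223 and 1409 at an unadjusted p below 0.05). It was 3 with sex as a covariate, 1 in male libraries only, 9 for female Glut1-KO libraries against all controls, 2 with counts summed by name number, and 0 to 1 with a library left out, the 1 being without control replicate 3.

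The direction of Fbp1, Gys1, Pcx and Pygb held under every alternative that gave a value. Leaving out single libraries gave 1.14 to 1.91 for Fbp1. The adjusted p over all alternatives ranged from 0.0853 (DESeq2) to 0.793 for Fbp1 and from 0.196 to 0.848 for Gys1. Pck2 turned to -0.10 with sex as a covariate and to -0.10 in male libraries, and ran from -0.055 to 0.10 with a library left out. Ugp2 turned to 0.094 with sex as a covariate and 0.093 in male libraries, and the list gene Ugcg to 0.022 and 0.021. Gyg was -0.0049 for female Glut1-KO libraries. Gbe1 turned to 0.014 by edgeR, 0.019 by DESeq2, 0.11 for female Glut1-KO libraries, 0.033 with counts summed by name number and 0.063 with sample quality weights, and ran from -0.091 to 0.17 with a library left out. With a library left out Pygl ran from -0.029 (without control replicate 2) to 1.24, and it was 1.64 with sex as a covariate. The causes were not tested.

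With the replicate block 0 genes were called (1156 at an unadjusted p below 0.05), Fbp1 was 1.66 and Gbe1 0.0013. Deviations of same-numbered libraries correlated at 0.042, -0.088, 0.029, 0.197 and -0.132, and only replicate 4 matched its own number best, so the numbers do not pair the libraries. Fbp1, Gbe1 and Pygl had no value under the filter of a mean of at least 20 TPM. Fbp1 rests on 41 to 709 reads per library, and its SE was 0.54, or 0.37 without Glut1-KO replicate 3. Sex is partly confounded with group, with 0 female controls.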
